A study of Mus musculus with 8 samples.

Results

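The genes described here are 10 known targets of p53: Cdkn1a, Mdm2, Ccng1, Btg2, Plk3, Ei24, Fas, Sesn1, Trp53inp1 and Zmat3. They were taken from a given list, with every probe set annotated to one of them alone, which gave 20 probe sets for 10 of the 18193 genes measured. Of these genes, 6 had more than 1 probe set and 4 had a single one. The genes were chosen by a list made with results of these data in view, and selected on the difference between Cbx3 and control arrays. All differences between Cbx3 and control arrays for these 10 genes are therefore given as descriptions without a test. Expression was measured on 8 arrays of mouse pre-iPSCs, cells that started reprogramming towards pluripotency and stalled before reaching it. All arrays share the same cell label, embryonic stem cell medium and 3 days with siRNA. Control arrays (n = 3) come from cells given siRNA to luciferase, which has no target among mouse genes. 3XHMT arrays (n = 2) come from cells given siRNA to Ehmt1, Ehmt2 and Setdb1 together, whose products methylate lysine 9 of histone H3. Cbx3 arrays (n = 3) come from cells given siRNA to Cbx3, which encodes HP1 gamma, a protein that binds that mark. The labels state neither the line or clone of the cells nor what separates one biological replicate from another, so p-values measure the spread between these samples, which may be technical.

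p53 is a transcription factor that is kept low by the ubiquitin ligase Mdm2 and builds up after DNA damage and other stress. It binds paired copies of a short half-site and switches on genes that halt the cell cycle, start cell death, restrain growth signalling or feed back on p53 itself. In fibroblasts the pathway is known as a barrier to reprogramming, largely through cell cycle arrest by p21 and through cell death. Several of its targets also answer to other signals, and Btg2 and Plk3 are known as immediate-early genes that growth factors induce.

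The siRNA targets and the array controls set the frame for these values. The brightest Cbx3 probe set stood at 42.8% of control in the Cbx3 arrays (limma adjusted p = 0.0453 over all probe sets), and it is annotated to the pseudogene Cbx3-ps5 as well. The brightest probe sets of Setdb1, Ehmt2 and Ehmt1 stood at 63.2%, 66.8% and 79.6% of control in the 3XHMT arrays. None of them was past the limma threshold over all probe sets (adjusted p = 0.556 for Setdb1 and 1.00 for the others). That of Setdb1 lay wholly below control, and those of Ehmt2 and Ehmt1 overlapped it. Pou5f1 signal was 12.99 ± 0.34 (SD, n = 3) and Nanog signal 5.13 ± 0.27 in control arrays on the log2 scale, and Nanog rose in both siRNA groups. Of 12 pluripotent cell markers, 12 were higher than control in 3XHMT by group mean. In Cbx3 8 were higher and 4 lower, with differences from -0.52 to 3.31 on the log2 scale. Of 12 fibroblast markers, 6 to 9 lay below the array median on every array, and their median lay between 5.29 and 5.81. Of 10 macrophage and blood markers, 5 or 6 did. The brightest fibroblast marker of each array read 11.68 to 12.71. The arrays fall into 3 sets by the signal of an 18S ribosomal RNA control: control 3, 3XHMT 2 and Cbx3 3 (9.98 to 10.17), control 1 and Cbx3 1 (11.2 and 11.5), and control 2, 3XHMT 1 and Cbx3 2 (12.6 to 12.8). The cause of these sets is not known, so differences within each set are given beside the group differences. The pluripotent cell markers did not all rise within the sets. For 3XHMT, 8 were higher and 4 lower against control 3, and likewise against control 2. For Cbx3, 7, 8 and 5 of the 12 were higher against control 3, 1 and 2. Control 3 also had the widest gap between the 3' and 5' probe sets of the actin control, 0.60 on the log2 scale against 0.17 to 0.28 on the other arrays.

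After Cbx3 siRNA the 10 targets split. Btg2 and Plk3 were 1.67-fold and 1.71-fold higher than control, and Sesn1, Ei24, Fas, Zmat3 and Trp53inp1 were at 60.2%, 67.2%, 67.8%, 71.1% and 74.4% of control. In these 7 genes the arrays of the groups did not overlap at the brightest probe set, whereas those of Cdkn1a, Mdm2 and Ccng1 did. Thus 2 genes lay wholly above and 5 wholly below control, where 7.52% and 6.78% of all genes did so. Since this contrast chose the split, nothing is read from those counts. The members nearest to no difference were Ccng1, at -0.01 on the log2 scale, Mdm2, at -0.07, and Cdkn1a, at 0.15, while the smallest difference without overlap was that of Trp53inp1, at -0.43. In bulk RNA, fewer cells that express a gene and less of its RNA per cell cannot be told apart.

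**Figure D1:**
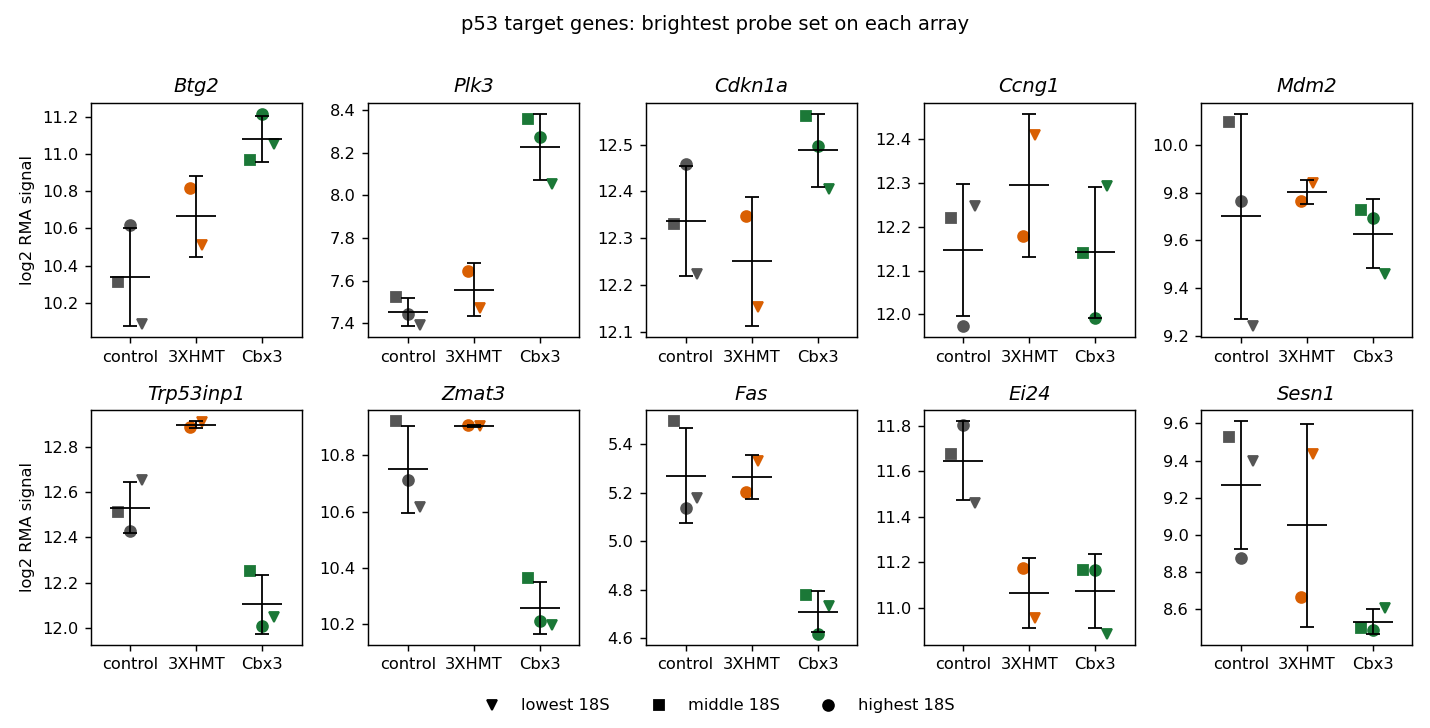
Log2 RMA signal (vertical axis, a separate range in each panel that does not start at 0) of the brightest probe set of each p53 target on each array, by siRNA group. Points are arrays, with the marker giving the 18S ribosomal RNA set, and bars are the mean ± SD (n = 3, 2 and 3 for control, 3XHMT and Cbx3). The Cbx3 points lie above all control points for Btg2 and Plk3 and below them for Trp53inp1, Zmat3, Fas, Ei24 and Sesn1.

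Among the genes that halt proliferation, Btg2 encodes an antiproliferative protein that recruits the deadenylase machinery to messenger RNAs. Its brightest probe set read 10.31, 10.62 and 10.09 in control arrays, 10.82 and 10.51 in 3XHMT arrays, and 10.97, 11.22 and 11.06 in Cbx3 arrays. Every Cbx3 array was above every control and 3XHMT array, and the 3XHMT arrays lay among or just above the controls. The second Btg2 probe set showed the same order, with 9.66 ± 0.17 (SD, n = 3) in control, 9.91 ± 0.0061 (SD, n = 2) in 3XHMT and 10.53 ± 0.11 (SD, n = 3) in Cbx3. Within the 18S sets the Cbx3 difference of the brightest probe set was 0.97, 0.66 and 0.60 on the log2 scale, higher in all 3 pairs. The 3XHMT difference was 0.33 ± 0.18 (SE; limma adjusted p = 1.00), and it did not pass with the 18S set as a block (adjusted p = 0.369).

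Plk3 encodes a polo-like kinase of the stress response and had a single probe set. Control arrays read 7.52, 7.44 and 7.39, 3XHMT arrays 7.65 and 7.47, and Cbx3 arrays 8.36, 8.27 and 8.05. The control and 3XHMT values interleave, and all Cbx3 values lie apart above them. Within the 18S sets the Cbx3 difference was 0.66, 0.84 and 0.83, higher in all 3 pairs. The 3XHMT difference was 0.11 ± 0.13 (SE; limma adjusted p = 1.00).

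Cdkn1a encodes p21, the cyclin-dependent kinase inhibitor through which p53 stops the cell cycle. Its brightest probe set read 12.33, 12.46 and 12.22 in control arrays, 12.35 and 12.15 in 3XHMT arrays, and 12.56, 12.50 and 12.40 in Cbx3 arrays. The groups overlap, with a Cbx3 difference of 0.15 beside a control SD of 0.12. By 18S set, which pairs the control and Cbx3 arrays of the same number, the difference was 0.18, 0.23 and 0.04, higher in all 3 pairs. At the second probe set control 3 read 10.50 where the other control arrays read 11.72 and 11.61, so the group difference of 0.39 rests on that array. By 18S set, that probe set differed by 1.00 in the set of control 3 and by 0.14 and 0.02 in the others. Control 3 is the array with the wide actin gap, and the part of RNA quality in this value was not tested. The 3XHMT difference was -0.09 ± 0.13 (SE; limma adjusted p = 1.00) at the brightest probe set and 0.08 at the second.

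Promoter windows of these genes were searched for the p53 half-site. RefSeq windows of GRCm38.p6, from 250 bases before to 50 bases after a start, were at hand for 8 of the 10 genes, in 10 windows. The 10-letter p53 half-site consensus, searched by name on both strands and with all letters matching, occurred in 5 of the 10 windows and in 8.36% of all 32851 windows. It was in the upstream of the 2 windows of Cdkn1a and one of the 2 of Sesn1, and in those of Mdm2, Ccng1 and Ei24. The windows of Btg2, Plk3 and Fas, the other Cdkn1a window and the other Sesn1 window held no match. The windows of 4 genes are shown because they cover the gene with 2 matches, a gene lower in both siRNA groups, and the pair of genes higher after Cbx3 siRNA. Capitals mark the p53 half-site or, in Btg2, the cyclic AMP response element TGACGTCA, which is its own reverse complement and occurred in 1.79% of all windows.
Cdkn1a, upstream start, chr17:29090729-29091028, plus strand: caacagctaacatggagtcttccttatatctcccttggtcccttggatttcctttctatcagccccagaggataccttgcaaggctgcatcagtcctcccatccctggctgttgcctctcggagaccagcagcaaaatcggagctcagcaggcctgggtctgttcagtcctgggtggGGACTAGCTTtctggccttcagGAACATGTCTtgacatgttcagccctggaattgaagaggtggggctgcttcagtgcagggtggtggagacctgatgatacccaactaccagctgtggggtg
Ei24, chr9:36797285-36797584, minus strand: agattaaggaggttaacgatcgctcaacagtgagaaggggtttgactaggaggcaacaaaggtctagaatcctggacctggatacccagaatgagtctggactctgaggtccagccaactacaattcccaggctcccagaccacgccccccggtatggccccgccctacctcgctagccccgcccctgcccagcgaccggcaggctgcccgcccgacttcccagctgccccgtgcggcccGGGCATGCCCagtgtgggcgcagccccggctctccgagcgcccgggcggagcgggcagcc
Btg2, chr1:134079106-134079405, minus strand: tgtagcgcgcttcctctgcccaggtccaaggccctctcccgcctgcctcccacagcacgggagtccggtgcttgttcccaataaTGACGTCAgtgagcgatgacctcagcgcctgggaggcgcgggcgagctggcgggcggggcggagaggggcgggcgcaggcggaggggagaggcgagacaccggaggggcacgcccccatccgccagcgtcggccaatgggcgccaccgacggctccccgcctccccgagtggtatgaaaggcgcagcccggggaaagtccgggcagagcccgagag
Plk3, chr4:117133914-117134213, minus strand: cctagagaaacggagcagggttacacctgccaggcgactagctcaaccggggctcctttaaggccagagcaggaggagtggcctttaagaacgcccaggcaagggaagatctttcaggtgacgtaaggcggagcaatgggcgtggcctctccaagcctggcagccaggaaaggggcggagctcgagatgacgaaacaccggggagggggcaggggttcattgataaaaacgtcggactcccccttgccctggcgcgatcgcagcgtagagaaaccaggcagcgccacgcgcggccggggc
The first Cdkn1a match begins at position -73 relative to the start, the second lies downstream of it, and the Ei24 match begins at -10. The Mdm2 match, GAACTTGCCT, begins at -186, the Ccng1 match, GGGCAAGCCT, at -185, and the Sesn1 match, AAGCTTGTTT, at -173. So genes with a match were lower (Ei24 and Sesn1) or overlapping (Cdkn1a, Mdm2 and Ccng1) after Cbx3 siRNA, and genes with none were higher (Btg2 and Plk3) or lower (Fas). Since the Cbx3 contrast chose the split, nothing is read from this sorting. A match is a string of letters and no shown binding site, and windows for Trp53inp1 and Zmat3 were not used here. Sites outside the windows, and sites that differ from the consensus by a letter, were not searched. The CArG box, searched by name, was in 0 of the 10 windows and in 1.63% of all windows. The ratio of observed to expected CpG had a median of 0.741 over the 10 windows, from 0.0892 in the upstream Cdkn1a window to 1.12 in Mdm2, against a median of 0.384 over all windows.

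The genes that feed back on p53 showed no common shift. Mdm2, whose product marks p53 for degradation, read 10.10, 9.77 and 9.24 at its brightest probe set in control arrays, 9.77 and 9.84 in 3XHMT arrays, and 9.73, 9.69 and 9.46 in Cbx3 arrays. The controls span both other groups, with control 3 again the lowest array. The Cbx3 difference was -0.07, and 0.03 and 0.13 at the other probe sets, and within the 18S sets it was 0.22, -0.37 and -0.07 at the brightest. The 3XHMT difference was 0.10 ± 0.23 (SE; limma adjusted p = 1.00). Without control 3, the 3XHMT difference of Mdm2 turned to -0.13 and its Cbx3 difference became -0.30.

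Ccng1 encodes cyclin G1, which acts with protein phosphatase 2A on Mdm2. At its brightest probe set control arrays read 12.22, 11.97 and 12.25, 3XHMT arrays 12.18 and 12.41, and Cbx3 arrays 12.14, 11.99 and 12.29. These ranges nearly coincide. A second probe set read 11.12, 10.91 and 10.98 in control and 10.52, 10.74 and 10.74 in Cbx3 arrays, which do not overlap. The remaining probe set overlapped. The probe sets of Ccng1 thus disagree on Cbx3 siRNA, with differences of -0.01, -0.33 and -0.18. In 3XHMT arrays they stood 0.15, 0.15 and 0.11 above control, none past the limma threshold (adjusted p = 1.00 each).

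Ei24, Fas and Trp53inp1 act in cell death and autophagy. Ei24 encodes a membrane protein of the endoplasmic reticulum with a part in autophagy. It read 11.68, 11.80 and 11.46 in control arrays, 11.17 and 10.95 in 3XHMT arrays, and 11.17, 11.17 and 10.88 in Cbx3 arrays. Both siRNA groups lie below every control array and overlap each other. Within the 18S sets the Cbx3 difference was -0.57, -0.51 and -0.64 and the 3XHMT difference -0.50 and -0.63, so all 5 pairs were lower. The 3XHMT difference of -0.58 ± 0.16 (SE), 66.8% of control, had an unadjusted limma p of 0.00517 and did not pass over all genes (adjusted p = 0.385). With the 18S set as a block it passed over all genes (adjusted p = 0.0431), and not over all probe sets (0.0815). The comparisons share their control arrays, so a low value in both is not 2 independent observations.

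Fas encodes a death receptor of the tumour necrosis factor receptor family. Its single probe set read 5.49, 5.14 and 5.18 in control arrays, 5.20 and 5.33 in 3XHMT arrays, and 4.78, 4.62 and 4.73 in Cbx3 arrays. All Cbx3 arrays lie below the others, and 3XHMT lies inside the control range. The probe set is below the median of all probe set means, 5.89, where background compresses differences. The Cbx3 difference was -0.56, and -0.45, -0.72 and -0.52 within the 18S sets, while the 3XHMT difference was -0.00 ± 0.14 (SE; limma adjusted p = 1.00).

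Trp53inp1 encodes a nuclear protein that promotes p53-dependent cell death and also acts in autophagy. Its brightest probe set read 12.51, 12.43 and 12.65 in control arrays, 12.89 and 12.91 in 3XHMT arrays, and 12.25, 12.01 and 12.05 in Cbx3 arrays. It is the gene of the list whose siRNA groups lie on opposite sides of control, with no overlap between any groups. Within the 18S sets the Cbx3 difference was -0.60, -0.26 and -0.42, and the 3XHMT difference 0.26 and 0.46. The 3XHMT difference of 0.37 ± 0.13 (SE) had an unadjusted limma p of 0.0198 and did not pass over all genes (adjusted p = 0.696; 0.195 with the 18S set as a block). The difference of 0.79 between 3XHMT and Cbx3 arrays is given without a test, since it uses the arrays that chose the gene. At the dim second probe set both groups overlapped control, with differences of -0.16 for Cbx3 and 0.24 for 3XHMT.

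Sesn1 and Zmat3 act in metabolism and on RNA. Sesn1 encodes a sestrin, which restrains the growth kinase complex mTORC1. Its brightest probe set read 9.53, 8.88 and 9.40 in control arrays, 8.67 and 9.44 in 3XHMT arrays, and 8.50, 8.49 and 8.61 in Cbx3 arrays. The Cbx3 arrays are close together below every control and 3XHMT array, and the 2 3XHMT arrays lie far apart, 1 below the controls and 1 among them. Of the other probe sets, 2 also separated Cbx3 from control, with differences of -0.84 and -0.65, and the dimmest did not (0.09). Within the 18S sets the brightest differed by -0.79, -1.02 and -0.38 after Cbx3 siRNA. The 3XHMT difference was -0.22 ± 0.25 (SE; limma adjusted p = 1.00), turning to 0.17 without 3XHMT replicate 1. The 2 brightest Sesn1 probe sets carry the suffix _s_at, which marks probes that can match more than 1 transcript.

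Zmat3 encodes a zinc finger protein that binds RNA and controls the stability and splicing of transcripts. It read 10.92, 10.71 and 10.62 in control arrays, 10.91 and 10.90 in 3XHMT arrays, and 10.36, 10.21 and 10.20 in Cbx3 arrays. Cbx3 arrays lie below all others, and 3XHMT arrays lie at the top of the control range. The Cbx3 difference was -0.42, -0.56 and -0.50 within the 18S sets, and the 3XHMT difference was 0.16 ± 0.13 (SE; limma adjusted p = 1.00).

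Over all 20 probe sets, 3 lay wholly above and 8 wholly below control in the Cbx3 arrays and 9 overlapped, where 6.11% and 5.84% of all probe sets lay above and below. In the 3XHMT arrays 2 lay above, 1 below and 17 overlapped, where 8.54% and 6.81% of all probe sets did. At the brightest probe sets 1 gene lay above (Trp53inp1), 1 below (Ei24) and 8 overlapped, where 9.28% and 7.1% of genes lay above and below. In the limma fit of 3XHMT against control 0 of the 10 genes passed over all genes, where 0.231% of genes did, and none of their probe sets passed over all probe sets, where 0.0555% did. Unadjusted p was under 0.05 for 2 of them, Ei24 lower and Trp53inp1 higher, where 5.27% of genes reached it. With the 18S set as a block 1 gene passed, Ei24, where 1.76% of genes did, 0.868% higher and 0.89% lower. The median difference of the 10 genes was 0.10 in 3XHMT against 0.01 over all genes, and -0.25 in Cbx3 against 0.01. The Cbx3 counts and median come from the contrast that chose the split, so nothing is read from them.

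**Figure D2:**
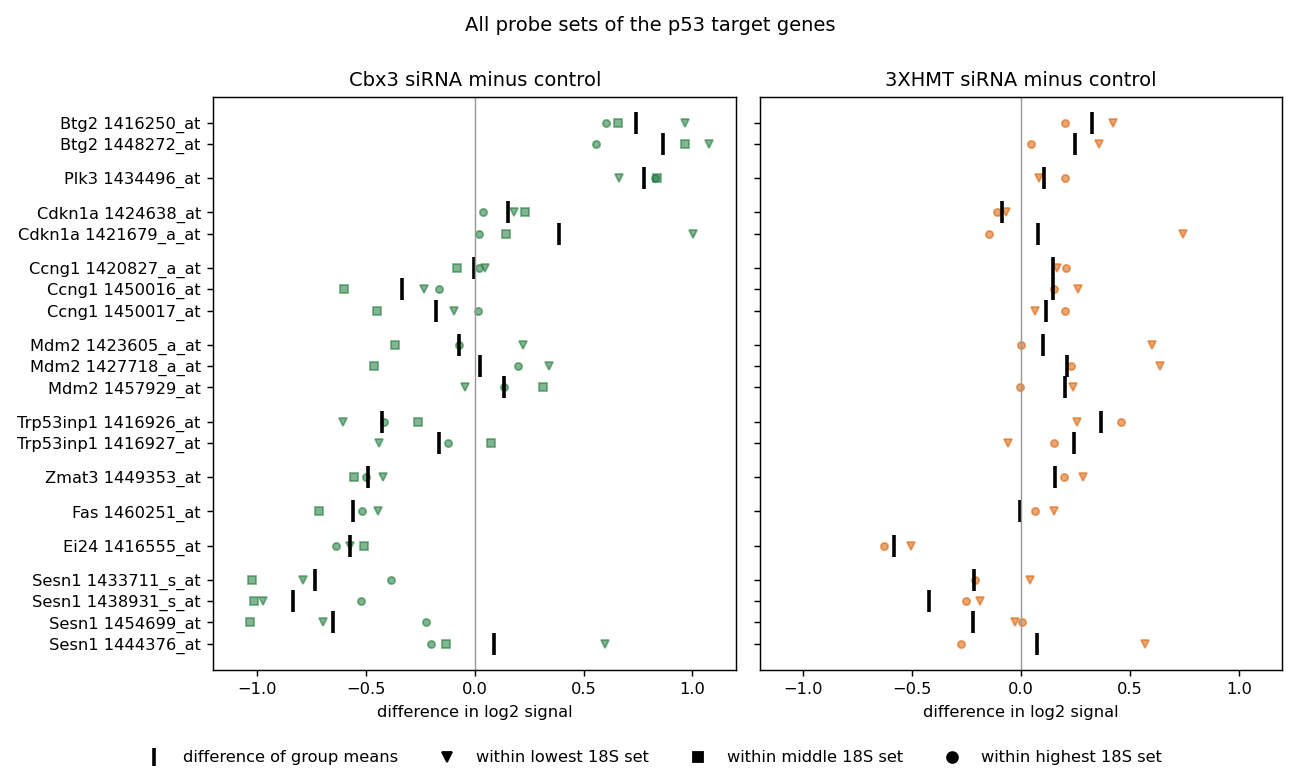
Difference in log2 signal from control (horizontal axis) for each of the 20 probe sets of the p53 targets, for Cbx3 siRNA (left) and 3XHMT siRNA (right). Black bars are differences of group means and coloured markers differences within each set of arrays with like 18S signal. At the brightest probe sets all markers after Cbx3 siRNA are above 0 for Cdkn1a, Btg2 and Plk3 and below 0 for Ei24, Fas, Sesn1, Trp53inp1 and Zmat3, and Ei24 lies at -0.50 and -0.63 in the 3XHMT pairs.

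The rest of the pathway was followed through lists compiled with earlier results known. Of 25 listed regulators of p53, 21 were measured, and Trp53 itself was not analysed here. Mdm4, the relative of Mdm2 that holds p53 inactive, read 9.94 ± 0.19 (SD, n = 3) in control, 9.76 ± 0.66 (SD, n = 2) in 3XHMT and 9.69 ± 0.50 (SD, n = 3) in Cbx3. Cdkn2a, whose Arf product blocks Mdm2, read 9.05 ± 0.10, 9.30 ± 0.23 and 8.88 ± 0.44. Mdm4 overlapped control in both groups. Cdkn2a overlapped control in Cbx3 and lay wholly above it in 3XHMT, by 0.25 ± 0.24 (SE; limma adjusted p = 1.00). By limma 0 of the 21 passed in either comparison, where 0.445% of genes did in Cbx3 and 0.231% in 3XHMT. Unadjusted p was under 0.05 for 1 higher and 1 lower gene in 3XHMT (Atm and Twist1), where 5.27% of all genes reached it. In Cbx3 it was under 0.05 for 0 higher and 3 lower genes (Hipk2, Cop1 and Chek1), where 9.56% of all genes reached it. With the 18S set as a block 1 of the 21 passed in Cbx3, where 6.59% of genes did. It was Hipk2, a kinase that phosphorylates p53, which was lower (-0.69 ± 0.21, SE; limma adjusted p = 0.280; 0.00746 with the block).

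Of 66 other p53 targets in 3 lists (cell death, DNA repair, and growth arrest and metabolism), 59 were measured. By limma 0 passed in either comparison over all genes, where 0.445% of genes did in Cbx3 and 0.231% in 3XHMT. Unadjusted p was under 0.05 in Cbx3 for 2 higher and 8 lower genes, where 9.56% of all genes reached it. In 3XHMT it was under 0.05 for 1 higher and 3 lower genes, where 5.27% of all genes reached it. In Cbx3 22 were higher and 37 lower, with a median of -0.05 against 0.01 over all genes, and in 3XHMT 28 were higher and 31 lower, with a median of -0.01. List medians differed between 18S sets. Against control 3, 1 and 2, those in Cbx3 were 0.001, -0.09 and -0.14 for cell death and -0.14, -0.13 and -0.09 for DNA repair. For growth arrest and metabolism they were 0.04, -0.01 and -0.13. Against control 3 and 2, those in 3XHMT were 0.13 and -0.10, 0.25 and 0.01, and 0.10 and -0.09 in the same order of lists. With the 18S set as a block, 8 passed in Cbx3, 2 higher and 6 lower, where 6.59% of genes did, 3.09% higher and 3.5% lower. With the replicate number as the block, which pairs control and Cbx3 arrays alike and 3XHMT arrays otherwise, 2 passed. Of the 8, the higher ones were Sertad1, a cell cycle regulator (1.36-fold; adjusted p = 0.137, 0.0309 with the block), and Trp53inp2, the relative of Trp53inp1 (1.44-fold; 0.228, 0.0178). The lower ones were Pank1, Pvt1, Igfbp3, Rb1, Eda2r and Plk2. Pank1, a pantothenate kinase of coenzyme A synthesis, read 7.73, 7.26 and 7.44 in control and 6.77, 6.38 and 6.22 in Cbx3 arrays, 2.03-fold lower without overlap (limma adjusted p = 0.0601; 0.0011 with the block). In 3XHMT, Pmaip1 alone passed with the block: this pro-apoptotic gene, known as Noxa, stood 1.80-fold above control (adjusted p = 0.562; 0.0114 with the block). The 3 lower genes by unadjusted p in 3XHMT did not pass with the block. Pycard, also of the cell death list, stood at 61.4% of control (limma adjusted p = 0.375; 0.107 with the block). Igfbp3 stood at 42.3% (0.57; 0.0568 with the block) and Ackr3 at 57.9% (0.89; 0.238 with the block).

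Relatives of the members were read to see whether whole families moved. Some relatives, such as Trp53inp2 and Plk2, are also among the other p53 targets above, so their values are not separate observations. Of 23 measured relatives, 1 passed in Cbx3 over all genes, where 0.445% of genes did. Zmat4 was this gene and fell from 6.41 ± 0.52 to 4.89 ± 0.13 (SD, n = 3 each), with a limma adjusted p of 0.0460. Its Cbx3 level is below the array medians of 5.87 to 5.90. With the block 2 relatives passed as higher (Tnfrsf1a and Trp53inp2) and 3 as lower (Zmat4, Sesn3 and Plk2), where 3.09% and 3.5% of all genes passed as higher and lower. Sesn3 stood at -0.45 ± 0.19 (SE; adjusted p = 0.503; 0.0416 with the block) and Sesn2 at -0.07, beside -0.73 for Sesn1. Plk2 stood at -0.40, opposite in sign to Plk3. In 3XHMT no relative passed without the block, where 0.231% of genes did. Zmat1 alone had an unadjusted p under 0.05, where 5.27% of all genes did. Its difference was -0.54 (limma adjusted p = 0.866; 0.0422 with the block).

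Cell cycle genes that p21 is known to lower were read as a further output of the pathway. Of 18 measured, 0 passed by limma in either comparison, with or without the block. Over all genes 0.445% passed in Cbx3 and 0.231% in 3XHMT without the block, and 6.59% and 1.76% with it. Chek1, already named among the regulators, alone had an unadjusted p under 0.05 (Cbx3, -0.42; limma adjusted p = 0.454), where 9.56% of all genes did. Their median was -0.10 in Cbx3 and -0.03 in 3XHMT, and its sign differed between 18S sets. In 3XHMT it was 0.04 against control 3, with 11 higher and 6 lower, and -0.17 against control 2, with 4 higher and 14 lower. In Cbx3 it was -0.14, -0.16 and 0.02 against control 3, 1 and 2.

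Immediate-early genes, a class to which Btg2 and Plk3 are also known to belong, had 24 of 26 listed members measured. In 3XHMT 19 of the 24 were lower, with a median of -0.41 against 0.01 over all genes, and in Cbx3 18 were higher, with a median of 0.12. By limma 0 passed in either comparison, where 0.445% of genes did in Cbx3 and 0.231% in 3XHMT. Unadjusted p was under 0.05 for 0 higher and 8 lower genes in 3XHMT, where 5.27% of all genes reached it in either direction. In Cbx3 it was under 0.05 for 1 higher and 0 lower genes, where 9.56% of all genes reached it in either direction. By 18S set, the median in 3XHMT was -0.13 for 3XHMT 2 against control 3, with 16 of 24 lower, and -0.52 for 3XHMT 1 against control 2, with 21 lower. In Cbx3 it was 0.40, 0.12 and 0.05 against control 3, 1 and 2. The size of the 3XHMT median thus differed between its 2 pairs. Zfp36, which encodes a protein that destabilises messenger RNAs, read 9.10, 9.43 and 8.99 in control, 8.61 and 8.52 in 3XHMT, and 9.70, 9.91 and 9.87 in Cbx3 arrays. The groups of Zfp36 do not overlap, with 3XHMT lowest and Cbx3 highest, and both differences passed with the block only (limma adjusted p = 0.352 and 0.112; 0.0422 and 0.00985 with the block). Junb also passed as higher and Ccn2 as lower in Cbx3 with the block, and Egr1 as lower in 3XHMT. With the block 6.59% of all genes passed in Cbx3 and 1.76% in 3XHMT. Beside these, Btg2 and Plk3 stood 0.33 and 0.11 above control in 3XHMT, and their difference from the list was not tested.

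**Figure D3:**
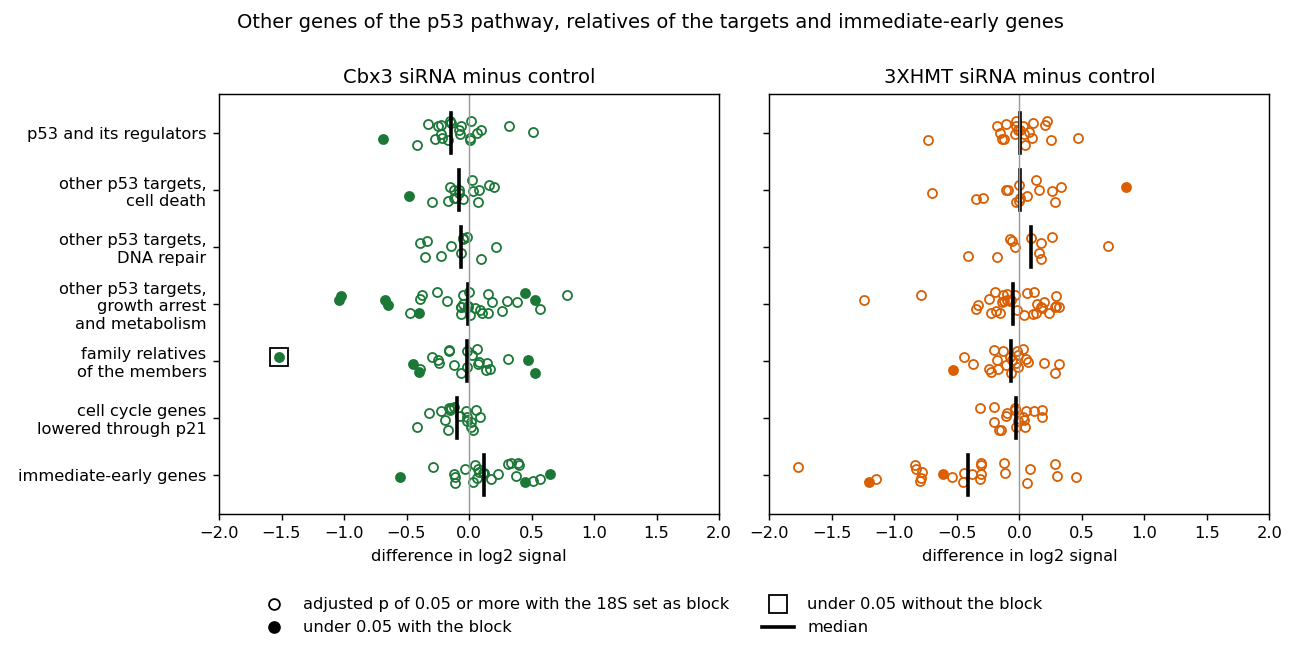
Difference in log2 signal from control (horizontal axis) for the measured genes of 7 lists, for Cbx3 siRNA (left) and 3XHMT siRNA (right). Each circle is a gene, filled where its limma adjusted p was under 0.05 with the 18S set as a block and boxed where it was under 0.05 without it, and bars are list medians. Zmat4 is the boxed gene, and the median of the immediate-early genes in 3XHMT lies at -0.41.

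Genes with the pattern most like that of 2 members were found by Pearson correlation over the 8 arrays, among 9096 genes above the median signal. Closest to Plk3 were Cyb561d2 (r = 0.980), Ccnd3 (0.978), Trim26 (0.967), Hip1r (0.967) and Plaur (0.964). Ccnd3, which encodes cyclin D3, averaged 10.65 in control, 10.76 in 3XHMT and 11.20 in Cbx3. Closest to Cdkn1a were Tmem184b (0.986), Dusp5 (0.982), Lzts2 (0.971), Nisch (0.970) and Apod (0.969). Dusp5, a phosphatase gene of the immediate-early list, averaged 9.54, 9.23 and 9.93. The 8 arrays share groups and 18S sets, so these values describe likeness only.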

How the data were processed

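RNA of 8 arrays was labelled with biotin by the standard Affymetrix protocol, per the labels' protocols. The submitters' processing notes name RMA, and the table the authors deposited holds its log2 values for 45101 probe sets. This method corrects background, normalizes arrays to a common distribution and summarises probes, so a shift shared by most genes is removed. Its version is not given in the sources used here. How precise a value is depends on how few arrays there are.

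Of the 45037 probe sets that are not controls, the platform annotation gave 1 symbol to 34945, several to 932 and none to 9160. Entrez identifiers of 34741 of those with 1 symbol matched RefSeq (GRCm38.p6), and 0 symbols were updated. Each of 18193 genes was read at its probe set with the highest mean. Group means of all 8 arrays were fitted with limma 3.58.1 (lmFit, eBayes, two-sided) in R 4.3.3, with 5 residual degrees of freedom and Benjamini-Hochberg adjustment over all genes, or over all probe sets where stated. A call is an adjusted p under 0.05. The fit was tested on simulated data.

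The 18S sets come from the largest gaps in the signal of the middle 18S control probe set and served as a block in an alternative fit. Deviations from group means correlated by 0.57, 0.59 and 0.74 between control and Cbx3 arrays of the same number, so the numbers, taken from the labels, pair these arrays. Between 3XHMT and control arrays of the same number the values were 0.11 and -0.56. The deviations of the 2 3XHMT arrays mirror each other, so these values cannot show whether the numbers pair them with controls.

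The members and lists were chosen with earlier results of these data known. The rule for names took the members, Mdm4, Cdkn2a and, of each list, genes past the threshold or with the 3 lowest p per comparison, of which those that carry a result are given. Sesn2, and genes that passed with a block only, were named after their values were seen. Alternatives were other probe sets of a gene, no shared or dim probe sets, cyclic loess, blocks on the replicate number or 18S set, fits of the compared groups only, a trend in eBayes, and leaving out each array.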

Additional observations from a re-analysis of the deposited data

How the results depend on the processing

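For the p53 targets, 0 of 10 genes passed between 3XHMT and control under every alternative but the 18S set as a block, which gave 1, Ei24 (adjusted p of 0.0431 to 0.995 over its alternatives). The block on the replicate number gave 0 members, 97 genes in all for 3XHMT and 312 for Cbx3, and 2 of the other p53 targets in Cbx3. With the 18S set as a block the counts were 320 and 1199 genes, 315 probe sets, and 1 and 8 other p53 targets in 3XHMT and Cbx3, against 42 and 81 genes, 25 probe sets and 0 and 0 without it. The replicate block gave 67 probe sets. Other settings moved the counts for 3XHMT to 24 genes (second probe set), 9 genes and 11 probe sets (no dim probe sets), 10 genes and 3 probe sets (compared groups only) and 42 probe sets (eBayes trend), and for Cbx3 to 27 genes (compared groups only). Leaving out 1 array gave 3 to 22 genes and 1 to 23 probe sets for 3XHMT and 2 to 34 genes for Cbx3, with fewer samples in each fit, and 3 to 5 members higher in Cbx3, the 5 without control replicate 1.

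Differences between 3XHMT and control that did not pass and changed sign were those of Cdkn1a (0.078 at the second probe set), Mdm2 (-0.055 with the replicate block), Fas (0.069 with the 18S block) and Sesn1 (0.17 without 3XHMT replicate 1). Without 1 array they spanned -0.18 to 0.012 for Cdkn1a, -0.13 to 0.30 for Mdm2, -0.071 to 0.11 for Fas and -0.60 to 0.17 for Sesn1. The Cbx3 difference changed sign under 4 of 17 alternatives for Mdm2 and 4 for Ccng1, and under 0 for the other members. Without control 3, an alternative chosen after seeing the data, 2 members lay wholly above and 6 wholly below control in Cbx3, the added one being Mdm2. The share of all genes that did so without control 3 was not counted, and nothing is read from these counts. Fas has no value without dim probe sets. The causes were not tested, and signal near background limits Fas, Zmat4 and the dimmest probe sets of Mdm2, Sesn1 and Trp53inp1.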

Other observations

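The genes next to the 10 p53 targets were read to see whether the Cbx3 differences extend along the chromosome. The nearest measured gene on each side, ordered by RefSeq, gave 20 neighbours. Of these, 0 passed by limma over all genes in either comparison, where 0.445% of genes did in Cbx3 and 0.231% in 3XHMT. With the 18S set as a block 4 neighbours passed in Cbx3, where 6.59% of all genes did. Beside Ei24, the neuronal gene Fez1 stood at -1.26 in Cbx3 (adjusted p = 0.105; 0.00124 with the block), and Stt3a on the other side at 0.20. Beside Fas, the smooth muscle actin gene Acta2 stood at -0.54 (0.0823; 0.0132 with the block), and Ch25h at 0.02. Beside Sesn1, Armc2 stood at 0.73, opposite to Sesn1 (0.453; 0.0259 with the block), and beside Zmat3 the gene 4930429B21Rik at -0.61 (0.188; 0.00995 with the block). The neighbours of Btg2 and Plk3 stood at 0.25 and -0.05, and at -0.09 and -0.11, on the log2 scale.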
